A study of Mus musculus with 9 samples.

Results

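The 10 B cell identity transcription factors, Pax5, Ebf1, Bach2, Bcl6, Foxo1, Ikzf1, Ikzf3, Spib, Pou2af1 and Ets1, were followed across naïve and activated B cells with and without the lactate and pyruvate transporter MCT1. The members were taken by gene symbol from the table of transcript levels, and all 10 were present among its 17596 genes. All 10 also passed the filter on low values, set at a mean of 1 FPKM or more across the 9 libraries, which left 10823 genes to test. FPKM counts the sequenced fragments of a gene relative to its transcript length and to all mapped fragments of the library.

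RNA was sequenced from splenic B cells of mice aged 6 to 8 weeks, and every animal carried Mb1Cre, a Cre recombinase expressed from the Mb1 (Cd79a) gene and therefore in the B cell lineage. Control Mb1Cre cells were measured before culture (day 0, n = 2 libraries) and after 3 days with LPS at 10 μg/mL and IL-4 at 50 ng/mL (day 3, n = 2). Mct1f/fMb1Cre cells, in which Cre removes a floxed segment of Mct1, were measured in the same way (day 0, n = 2, and day 3, n = 3) and are called Mct1-deficient. The labels name no individual mouse, so the p-values measure the spread between these libraries, which may be in part technical. The question was how the transcripts of these factors moved with activation, and whether loss of MCT1 altered their levels on either day.

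These factors set and hold the identity of the B cell. EBF1 and PAX5 switch on the genes of the B cell receptor and its co-receptors during development in the bone marrow, with FOXO1 and the Ikaros proteins acting around them. ETS1, SPIB and the octamer coactivator encoded by Pou2af1 work in mature B cells, and BCL6 and BACH2 hold back the plasma cell programme, BCL6 above all in the germinal centre. LPS with IL-4 drives splenic B cells to divide, to switch their antibody class and, in part, to become plasmablasts, a course in which much of this network is known to be turned down.

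The starts of 8 of the 10 genes were covered by the RefSeq promoter table of GRCm38.p6, with 11 promoters in all. Ikzf3 and Ets1 had no entry. The 250 bases before the start are shown for Spib and Foxo1, which carry an EBF-type match, and for Bach2 and the internal start of Bcl6, which carry a BCL6-type match. The Bach2 start lies within its gene as well. Pou2af1, the member that rose, is also shown and holds no match. Pax5 and both starts of Ebf1 hold no match to any motif searched either, and these genes fell on day 3, as did most of the factors. Capitals mark every match, on either strand, to the motifs searched.
Spib (chr7:44532072-44532321, minus strand): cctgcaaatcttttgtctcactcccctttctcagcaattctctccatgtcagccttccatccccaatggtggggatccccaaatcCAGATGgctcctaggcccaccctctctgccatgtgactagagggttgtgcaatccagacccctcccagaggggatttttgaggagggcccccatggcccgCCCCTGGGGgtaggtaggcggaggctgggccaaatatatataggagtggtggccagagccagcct
Foxo1 (chr3:52268087-52268336, plus strand): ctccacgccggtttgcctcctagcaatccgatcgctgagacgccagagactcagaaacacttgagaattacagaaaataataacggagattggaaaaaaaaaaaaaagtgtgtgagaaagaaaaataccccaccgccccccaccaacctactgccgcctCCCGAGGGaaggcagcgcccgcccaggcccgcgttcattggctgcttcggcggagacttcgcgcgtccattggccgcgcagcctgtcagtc
Bach2 (chr4:32417185-32417434, plus strand): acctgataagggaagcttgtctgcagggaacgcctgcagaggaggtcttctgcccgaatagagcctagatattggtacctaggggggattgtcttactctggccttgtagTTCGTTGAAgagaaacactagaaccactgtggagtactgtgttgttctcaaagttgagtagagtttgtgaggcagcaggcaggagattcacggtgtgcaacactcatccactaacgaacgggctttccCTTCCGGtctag
Bcl6, internal start (chr16:23981284-23981533, minus strand): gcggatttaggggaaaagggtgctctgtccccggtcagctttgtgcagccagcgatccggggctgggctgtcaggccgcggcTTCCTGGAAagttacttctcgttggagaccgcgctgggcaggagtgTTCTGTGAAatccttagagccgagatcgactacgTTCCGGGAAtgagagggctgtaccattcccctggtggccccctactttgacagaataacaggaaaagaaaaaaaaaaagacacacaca
Pou2af1 (chr9:51213440-51213689, plus strand): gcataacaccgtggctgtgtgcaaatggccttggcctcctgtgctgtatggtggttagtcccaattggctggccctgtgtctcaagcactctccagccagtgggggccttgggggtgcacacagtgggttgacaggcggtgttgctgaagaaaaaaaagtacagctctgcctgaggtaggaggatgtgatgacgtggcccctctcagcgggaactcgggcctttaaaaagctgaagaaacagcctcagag

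The motifs were searched on both strands, counting overlapping matches. The EBF form CCCNNGGG was found in 3 of the 11 promoters, those of Spib, Foxo1 and the first start of Ikzf1, and in 11.8% of all 32851 RefSeq promoters of the same length. In Spib 2 overlapping EBF matches lie in 1 stretch, CCCCTGGGG. The form TTCNNNGAA, bound by BCL6 and shared with STAT factors, was found in 3 of 11 promoters, belonging to Bach2 and to both starts of Bcl6, and in 7.02% of all promoters. The internal Bcl6 start, which lies within the gene and outside its annotated exons, held 3 such matches. The ETS form CCGGAAG stood in the Bach2 promoter and in 6.91% of all promoters. The form GAGGAAG of PU.1 and SPIB stood in the first Bcl6 promoter and in 10.6% of all promoters. The E-box CANCTG stood in the Spib promoter and in 44.8% of all promoters. The octamer ATGCAAAT, found in 1.60% of all promoters, was in 0 of the 11 windows. The forkhead form GTAAACA, found in 3.17% of all promoters, was in 0 of the 11 windows. The AP-1 form TGANTCA, found in 6.75%, and the TATA box letters TATAAA, found in 12.4%, were likewise in 0 of the 11. The windows shown for Bach2, Spib and Pou2af1 also lie outside the annotated exons of their genes, and that of Foxo1 touches an annotated exon by 1 base. The Bach2 window, at chr4:32417185-32417434, lies within the gene, which begins at chr4:32238413, so it is not at the head of the gene. The GC content ran from 40.0% in the first Ebf1 promoter to 82.0% in the first Ikzf1 promoter, with a median of 56.0% against 52.4% over all promoters. A match describes the letters and is not a measured binding site.

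The libraries were checked before the factors were compared. Slc16a1, the gene of MCT1, stood at 4.33 and 3.80 FPKM in control and 3.71 and 4.06 FPKM in Mct1-deficient cells on day 0. On day 3 Slc16a1 was at 22.58 and 22.95 FPKM in control and at 10.82, 9.81 and 9.50 FPKM in Mct1-deficient cells, so the whole-gene value separated the genotypes on day 3 and not on day 0. Ddx3y, a Y-linked gene, was at 0.24 and 0.02 FPKM in the day 0 control libraries and at 31.13 and 0.20 FPKM in the day 0 Mct1-deficient libraries, and between 14.69 and 16.91 FPKM in the 5 day 3 libraries. Ddx3y thus moved with the day in the controls, so the part of the animals' sex in the changes with activation cannot be told apart. The summed level of 6 B cell markers ran from 4344.8 to 4741.6 FPKM on day 0 and from 2180.0 to 2267.6 FPKM on day 3. The sums of markers of other cells moved with the day too: 8 myeloid markers from 1189.0 to 1997.9 FPKM on day 0 and from 72.65 to 111.09 FPKM on day 3, 6 erythroid markers from 87.34 to 157.68 and from 0.07 to 0.56 FPKM (Hbb-bs and Slc4a1 at 0 in all day 3 libraries), 8 T cell markers from 60.15 to 68.86 and from 87.26 to 125.07 FPKM, and 4 NK cell markers from 66.99 to 82.84 and from 85.26 to 98.36 FPKM. Of the T and NK lists, only Thy1 and Gzma rose, and the other T cell markers and the other 3 NK cell markers fell in both genotypes. The defining T cell marker Cd3e was between 1.76 and 2.93 FPKM on day 0 and at most 0.11 FPKM on day 3. The part of these cells in the changes with activation was not tested. FPKM is relative to all mapped fragments of a library, so a lower value need not mean less RNA per B cell. Changes in the share of B cells and in RNA per B cell cannot be told apart in such bulk samples, and neither was tested.

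All 10 factors were expressed above the median gene tested, with mean levels over the 9 libraries from the 61.9th percentile of the genes tested (Bach2) to the 98.6th (Pou2af1). On day 0 the levels per transcript length ran in the same order in both genotypes, Spib, Pou2af1, Ets1, Pax5, Ikzf3, Ikzf1, Foxo1, Ebf1, Bcl6 and Bach2, and no 2 neighbours overlapped between their libraries. Spib, an ETS factor of mature B cells, averaged 480 ± 22.7 FPKM (SD, n = 2) in control and Bach2 32.5 ± 0.806 FPKM. On day 3 the order was changed: Pou2af1 stood first at 533 ± 3.32 FPKM (n = 2) in control, 4.90 times the level of Spib, and Ikzf1 and Pax5 followed at levels that overlapped. Ikzf3, Ets1, Foxo1, Ebf1, Bach2 and Bcl6 came after them in that order in both genotypes, and Bach2 and Bcl6 overlapped in Mct1-deficient cells. Together the 10 factors made up 0.321 to 0.346% of all FPKM on day 0 and 0.165 to 0.179% on day 3. The coefficient of variation within a group had a median of 3.17% and was at most 11.2%.

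**Figure D1:**
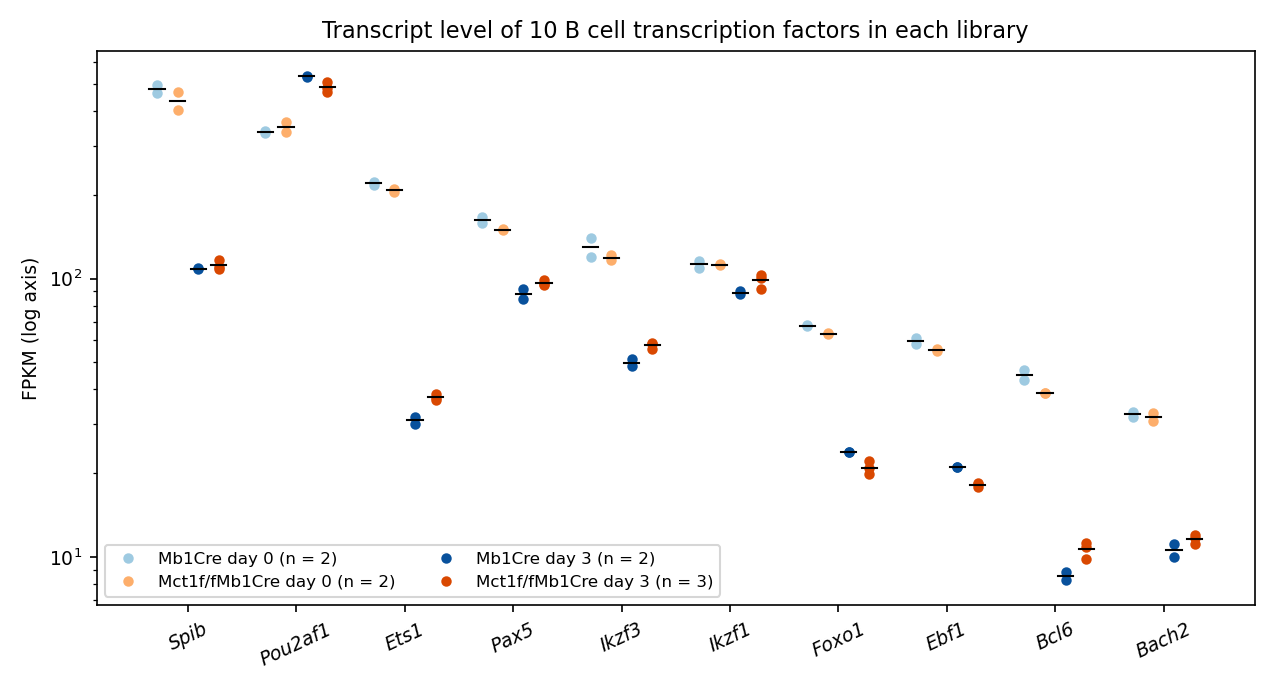
Transcript level in FPKM (log axis) of each factor in each of the 9 libraries, ordered by the day 0 control level, with points for libraries and a bar for the group mean. Pou2af1 is the only factor whose day 3 points lie above its day 0 points, and Ets1 shows the widest step, from 218 and 222 FPKM to 30.0 and 31.9 FPKM in control.

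Most of the network was lower after activation. In control B cells 8 of the 10 factors were called lower on day 3, which required a size of over 0.5 on the log2 scale beside an adjusted p under 0.05, where 33% of all genes tested were called lower. Pou2af1 was called higher, where 24.8% of all genes were, and Ikzf1 fell by less than the limit. The median log2 fold change was -1.46 over the 10 factors and -0.12 over all genes tested. In Mct1-deficient cells 8 factors were called lower against 33.2% of all genes, again all but Ikzf1 and Pou2af1, and 0 were called higher against 23.4%, since the rise of Pou2af1 passed the test in limma (adjusted p = 3.23e-06) but not the limit. All 10 factors had an unadjusted p under 0.05 in each genotype, as did 85.3% of all genes in control and 86.1% in Mct1-deficient cells, and the medians in the latter were -1.47 and -0.14. Scaling moved the median of all genes in control cells by -0.18 (common total), 0.19 (median of ratios) and 0.14 (quantile), and relative to it the median of the factors stayed between -1.53 and -1.32. Under the common total or quantile scaling 9 factors were called lower and 0 higher in control, and under median-of-ratios scaling 7 were called lower and 1 higher in Mct1-deficient cells.

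Pax5, Ebf1 and Foxo1, the factors that specify the lineage and keep it, all fell. Pax5 (chr4:44524748-44710694) read 167 and 159 FPKM when naïve and 84.6 and 91.7 FPKM once activated in control cells. In Mct1-deficient cells it read 150 and 151 FPKM when naïve and 98.7, 94.6 and 96.0 FPKM once activated. No day 3 library reached a day 0 level, and the log2 fold change was -0.88 (SE 0.05, adjusted p = 1.48e-08, limma) in control and -0.63 (SE 0.04, adjusted p = 1.06e-07) in Mct1-deficient cells. Ebf1 (chr11:44618100-45008096) read 58.1 and 61.3 FPKM when naïve and 21.0 and 21.1 FPKM once activated in control, and 54.8 and 55.7 against 18.4, 18.3 and 17.8 FPKM in Mct1-deficient cells. It fell to 35.3% of the day 0 mean in control and to 32.9% in Mct1-deficient cells, with log2 fold changes of -1.46 and -1.55. Foxo1 (chr3:52268337-52350109), which acts downstream of PI3K signalling and is held out of the nucleus when that pathway is on, read 67.9 and 67.4 FPKM when naïve and 23.9 and 23.8 FPKM once activated in control. Its Mct1-deficient libraries read 63.6 and 63.3 FPKM when naïve and 22.0, 19.9 and 20.9 FPKM once activated. The log2 fold changes of Foxo1, -1.47 and -1.56, lay next to those of Ebf1, and among the pairs of factors these 2 had the most alike profiles, with a root mean square difference of 0.0418 on the centred log2 scale over the 9 libraries.

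The ETS factors also fell, and Ets1 furthest of the 10. Ets1 (chr9:32636241-32757820), which restrains the differentiation of B cells into plasma cells, read 218 and 222 FPKM when naïve and 30.0 and 31.9 FPKM once activated in control cells. Mct1-deficient cells read 211 and 205 FPKM when naïve and 38.7, 36.5 and 37.2 FPKM once activated. This was a 7.11-fold fall in control and a 5.56-fold fall in Mct1-deficient cells, with log2 fold changes of -2.79 (SE 0.05, adjusted p = 3.08e-12, limma) and -2.44 (SE 0.04, adjusted p = 2.73e-12). Ets1 is also made by T cells. Of the T cell markers in control, Cd4, which fell most, averaged 14.4 FPKM on day 0 and 0.05 FPKM on day 3. Cd3e averaged 2.915 and 0.075 FPKM, and Thy1, the only one of the list to rise, 9.86 and 111.74 FPKM. The part of T cells was not tested. Spib (chr7:44525995-44532087) read 464 and 496 FPKM when naïve and 108 and 109 FPKM once activated in control, and 403 and 469 against 108, 110.2 and 117 FPKM in Mct1-deficient cells. The 2 day 0 Mct1-deficient libraries of Spib lay furthest apart of its groups, and all day 3 libraries were far below them. Its log2 fold changes were -2.13 and -1.95.

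The Ikaros pair parted. Ikzf1 (chr11:11684962-11772930), the founding Ikaros factor, read 116 and 109.5 FPKM when naïve and 87.8 and 90.4 FPKM once activated in control. Mct1-deficient cells read 112 and 113 FPKM when naïve and 103, 92.0 and 101 FPKM once activated. Ikzf1 fell by 0.33 (log2, adjusted p = 1.80e-04, limma) and by 0.19 (adjusted p = 0.00473), both under the limit of 0.5. With median-of-ratios scaling its log2 fold change was -0.12 (adjusted p = 0.0568) in control and 0.03 (adjusted p = 0.603) in Mct1-deficient cells, so neither its fall nor its direction in the latter held under that scaling, while the adjusted p was under 0.05 in the other 19 and 18 alternatives. Ikzf3 (chr11:98464610-98546031), known as Aiolos, read 140 and 119.5 FPKM when naïve and 48.4 and 51.4 FPKM once activated in control, and 117 and 121 against 58.6, 56.0 and 58.1 FPKM in Mct1-deficient cells. It fell to 38.5% of the day 0 mean in control and to 48.3% in Mct1-deficient cells.

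Bcl6 and Bach2, the repressors of the plasma cell programme, were the lowest of the 10 on both days in both genotypes. Bcl6 (chr16:23965050-23988866) read 47.1 and 43.1 FPKM when naïve and 8.26 and 8.81 FPKM once activated in control cells. Mct1-deficient cells read 38.84 FPKM in both day 0 libraries and 10.86, 11.25 and 9.81 FPKM once activated. Bcl6 fell 5.28-fold in control and 3.65-fold in Mct1-deficient cells, with log2 fold changes of -2.27 (SE 0.07, adjusted p = 1.18e-10, limma) and -1.78 (SE 0.06, adjusted p = 3.47e-10). Bach2 (chr4:32238413-32586109) read 32.0 and 33.1 FPKM when naïve and 10.00 and 11.1 FPKM once activated in control, and 32.9 and 30.8 against 11.9, 11.2 and 11.7 FPKM in Mct1-deficient cells. Its log2 fold changes were -1.54 and -1.38.

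Pou2af1 (chr9:51213690-51240079), which encodes the coactivator OCA-B that joins the octamer factors at immunoglobulin promoters, went the other way. It read 339.95 and 333 FPKM when naïve and 536 and 531 FPKM once activated in control cells. Mct1-deficient cells read 366 and 337 FPKM when naïve and 510.5, 469 and 486 FPKM once activated. All day 3 libraries were above all day 0 libraries, and Pou2af1 rose to 158% of the day 0 mean in control (log2 0.66, SE 0.05, adjusted p = 4.18e-07, limma) and to 139% in Mct1-deficient cells (log2 0.47, SE 0.05).

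**Figure D2:**
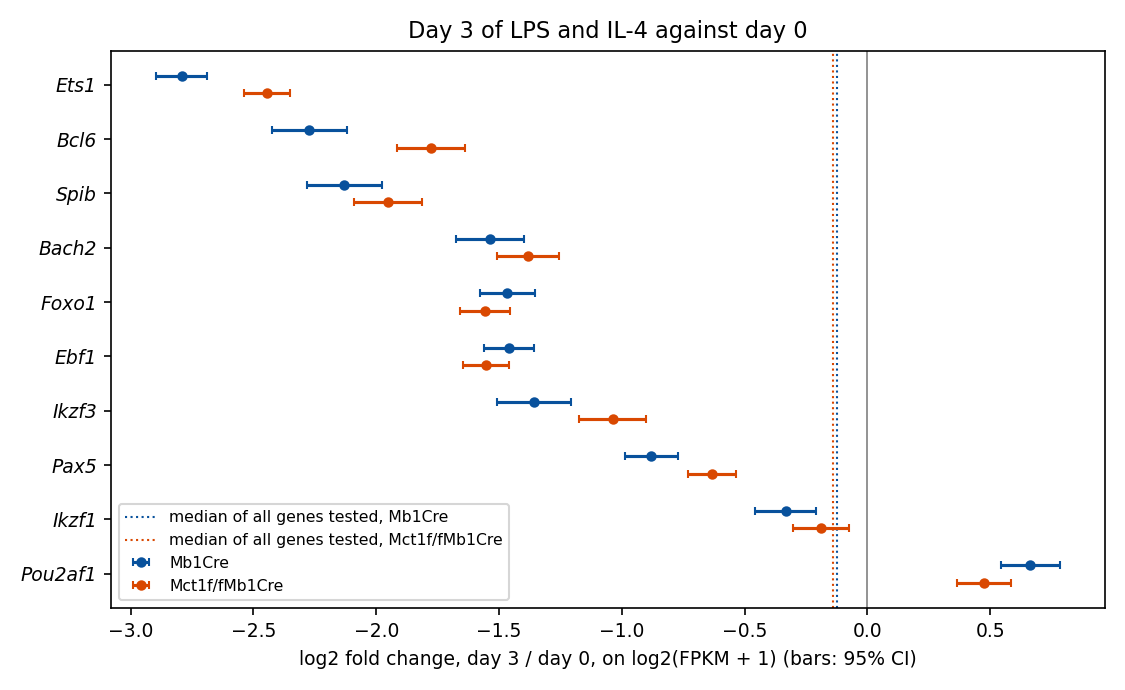
Log2 fold change of day 3 against day 0 for each factor, with 95% confidence intervals from limma, in control (blue) and Mct1-deficient cells (orange); dotted lines give the medians of all genes tested, -0.12 and -0.14. Of the 10 factors Pou2af1 alone lies to the right of 0, and the intervals of the genotypes do not touch for Ets1, Bcl6, Ikzf3 and Pax5.

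On day 3 the genotypes differed little in these factors, and in both directions. By the call with the log2 limit, 0 of the 10 factors were called in limma, where 2.42% of all genes were, and 9 had an unadjusted p under 0.05, as did 29% of all genes. By the adjusted p alone, Bcl6 and Ets1 were higher in Mct1-deficient cells, with 6.03% of all genes passing in that direction, and Ebf1 and Foxo1 were lower, with 9.21% passing. The 3 Mct1-deficient libraries lay above both control libraries for 6 factors (21% of all genes did so) and below them for 3 (26.1% of all genes), and Spib alone overlapped. The median log2 difference was 0.13 over the factors and -0.01 over all genes tested. Some genes on the marker lists of other cells differed between the genotypes on day 3 as well. The 8 myeloid markers summed to 103.72 to 111.09 FPKM in control and 72.65 to 76.23 FPKM in Mct1-deficient cells, and the 8 T cell markers to 123.94 to 125.07 and 87.26 to 103.09 FPKM. A single gene made up most of each sum. Ly6c2 averaged 83.3 FPKM in control and 40.5 FPKM in Mct1-deficient cells, and Thy1 averaged 112 and 78.8 FPKM. With activation in control, 7 of the 8 myeloid markers were called lower, all but Ly6c2 (log2 -0.47), where 33% of all genes were. Of 7 tested T cell markers 6 were called lower and Thy1 alone higher (log2 3.38), where 24.8% of all genes were called higher. The other markers of both lists went in both directions between the genotypes. Of single markers, Lyz2 (log2 0.71, adjusted p = 0.00150, limma) and Adgre1 (0.68) were called higher in Mct1-deficient cells, and Ly6c2 (-1.02) and Thy1 (-0.50) were called lower. Their part in the differences of the factors was not tested.

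Bcl6 in Mct1-deficient cells stood at 125% of the control level on day 3, a log2 difference of 0.29 (95% CI 0.15 to 0.43, adjusted p = 0.0121, limma). Without day 3 control replicate 1 the difference of Bcl6 was 0.24 and no longer passed (adjusted p = 0.117), while Bcl6 passed in the other 18 of 19 alternatives, with adjusted p down to 0.00742. Ets1 stood at 121% of control, a log2 difference of 0.27 (95% CI 0.17 to 0.36, adjusted p = 0.00199), and passed in all 19 alternatives, with adjusted p between 0.00155 and 0.0341. Ebf1 stood at 86.2% of control with a log2 difference of -0.20 (95% CI -0.30 to -0.11, adjusted p = 0.00821). Foxo1 stood at 87.8% of control with a log2 difference of -0.18 (95% CI -0.28 to -0.08, adjusted p = 0.0252). Leaving out either day 3 control library took the adjusted p of Ebf1 to 0.0619 and 0.0617 and that of Foxo1 to 0.135 and 0.118. The adjusted p of Foxo1 was also above 0.05 without Mct1-deficient replicate 2 (0.0737) or replicate 3 (0.0687), with a common total (0.0603), with quantile scaling (0.0557) and with the day 3 groups alone in the fit (0.0542). In all, Ebf1 passed in 16 of 19 alternatives (adjusted p from 0.00711) and Foxo1 in 11 of 19 (from 0.0131).

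The other 6 factors did not pass on day 3. Ikzf3 came nearest with a log2 difference of 0.20 (95% CI 0.07 to 0.34, adjusted p = 0.05004). Ikzf1, Pax5 and Bach2 had differences of 0.14, 0.13 and 0.13 with adjusted p of 0.0857, 0.0780 and 0.172. Without day 3 control replicate 1 the difference of Pax5 was 0.07 and that of Bach2 0.06, and without replicate 2 that of Bach2 was 0.20. Ikzf3 passed in 5 of 19 alternatives, with adjusted p down to 0.0106 without a day 0 control library and at 0.0174 with the day 3 groups alone in the fit, and Pax5 and Ikzf1 passed in 1 each. Pou2af1 had a difference of -0.13 (adjusted p = 0.112). For Spib the difference was 0.04 with a 95% CI of -0.10 to 0.17, which spans 0.

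In naïve cells 0 of the 10 factors passed at the adjusted p in limma, where 0.416% of all genes did, and 3 (Bcl6, Pax5 and Ebf1) had an unadjusted p under 0.05, as did 11.7% of all genes. The widest log2 difference was that of Bcl6, -0.21 (95% CI -0.36 to -0.06, adjusted p = 0.287). The Mct1-deficient libraries lay below both control libraries for 5 factors, Pax5, Ebf1, Bcl6, Foxo1 and Ets1 (19.7% of all genes did so), and above them for 0 (18.7% of all genes). Spib, Ikzf3, Pou2af1, Bach2 and Ikzf1 overlapped. With 2 libraries in each group the median difference over the factors was -0.10, against -0.0025 over all genes.

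**Figure D3:**
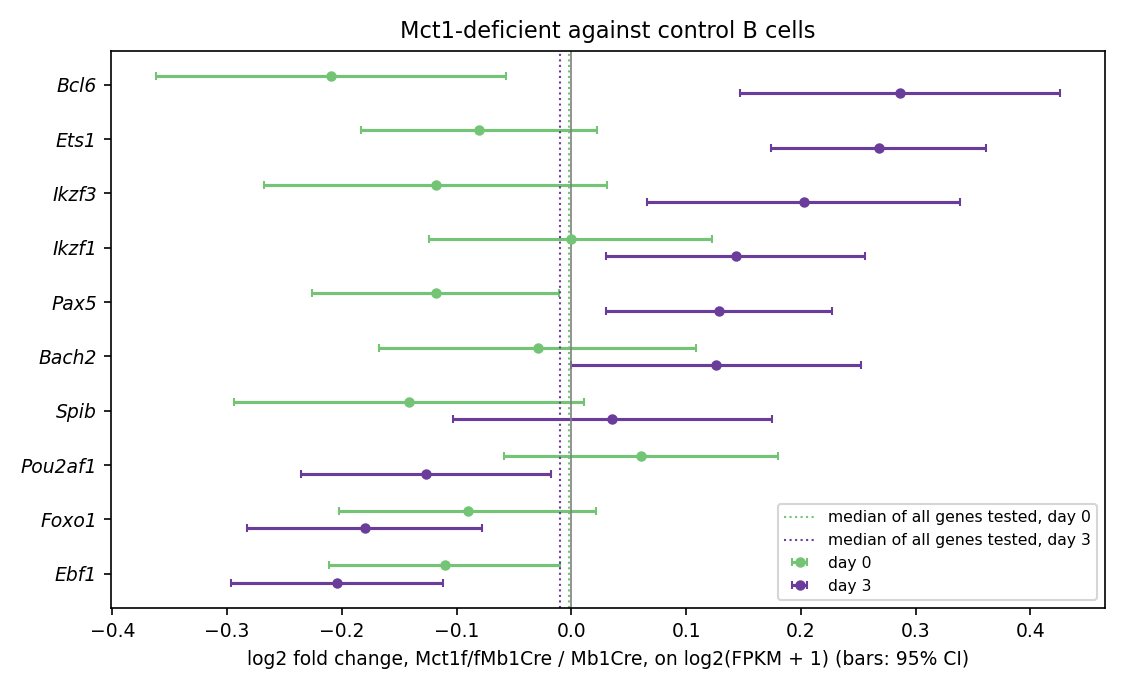
Log2 difference of Mct1-deficient against control cells for each factor on day 0 (green, 2 against 2 libraries) and day 3 (purple, 3 against 2), with 95% confidence intervals from limma and the medians of all genes tested as dotted lines. Bcl6 and Ets1 lie at 0.29 and 0.27 on day 3 and at -0.21 and -0.08 on day 0.

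The difference between the genotypes in the response to activation was taken from the genotype by day interaction. Of the 10 factors 0 were called in limma, where 3.23% of all genes were, and 5 had an unadjusted p under 0.05, as did 25.4% of all genes. By the adjusted p alone 3 were higher, Bcl6, Ets1 and Pax5, with 3.82% of all genes passing in that direction, and 0 were lower, with 5.61% passing. Each of the 3 fell on day 3 in both genotypes and fell less in Mct1-deficient cells. Bcl6 had an interaction of 0.496 (95% CI 0.29 to 0.70, adjusted p = 0.0100), just under the limit of 0.5, and passed in all 18 alternatives, with adjusted p between 0.00717 and 0.0477. For Ets1 it was 0.35 (95% CI 0.21 to 0.49, adjusted p = 0.00839), and it too passed in all 18, between 0.0069 and 0.0426. Pax5 had an interaction of 0.25 (95% CI 0.10 to 0.39, adjusted p = 0.0426) that passed in 6 of 18 alternatives, with adjusted p between 0.0358 and 0.158, and was lost without any 1 of 7 of the 9 libraries. For Ikzf3 the interaction was 0.32 (adjusted p = 0.0531), and it passed in 3 of 18 alternatives. It was 0.21 (adjusted p = 0.112) without day 0 control replicate 1 and 0.43 (adjusted p = 0.00655) without replicate 2. The activation, genotype and interaction comparisons share libraries, so none is separate evidence for another.

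Relatives and partners of the factors were read from lists. Of 24 family paralogs 15 were expressed enough to test, and Pax8, Ebf2, Ebf3, Ebf4, Bcl6b, Foxo6, Ikzf2, Ikzf4 and Erg were below the filter. In control cells 11 of the 15 were called lower on day 3 and 0 higher, against 33% and 24.8% of all genes, with a median log2 fold change of -1.07 against -0.12. Spic, the SPIB relative of red pulp macrophages, dropped from 33.4 ± 0.502 to 0.165 ± 0.0636 FPKM (n = 2 and 2, log2 -4.88), and Bach1 from 8.55 ± 0.841 to 2.29 ± 0.205 FPKM (log2 -1.54). The myeloid marker sum fell over the same days, and its part was not tested. Etv6 rose by 0.35 (log2, adjusted p = 1.83e-04, limma), under the limit, and the log2 difference of Gabpa was 0.13 (adjusted p = 0.0799). Between genotypes 0 of the 15 paralogs were called on either day, where 2.42% of all genes were called on day 3. On day 0 only 26 of all 10823 genes were called higher and 4 lower. By the adjusted p alone, 3 paralogs were lower and 0 higher on day 3, against 9.21% and 6.03% of all genes.

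Of 25 partner and companion factors, all tested, 10 were called lower and 4 higher with activation in control, near the 33% and 24.8% of all genes, and the median log2 fold change was -0.33 against -0.12. The E protein inhibitors Id2 and Id3 fell most, with log2 fold changes of -2.90 and -2.77. Mef2b, an activator of BCL6 in the germinal centre, rose from 3.27 FPKM on day 0 to 39.2 FPKM on day 3 (log2 3.24), and Runx3 rose by 0.86. On day 3, when 2.42% of all genes were called, the Mct1-deficient cells had 1 partner called lower and 0 higher. This was Myb, a factor of proliferating progenitors, at 4.37 ± 0.282 FPKM (n = 3) against 6.70 ± 0.0424 FPKM (n = 2) in control (log2 -0.52, adjusted p = 2.94e-04, limma). By the adjusted p alone 4 were higher and 3 lower, against 6.03% and 9.21% of all genes. Bcl11a, which is required for B cell development, was called in the interaction at 0.57 (adjusted p = 4.24e-04): it fell in control (log2 -0.51) and had a log2 fold change of 0.06 (adjusted p = 0.179) in Mct1-deficient cells. Myb was called in the interaction in the other direction (-0.55, adjusted p = 0.00502), having fallen by 1.47 in control and by 2.02 in Mct1-deficient cells.

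Genes known to be under the control of these factors were read in the same way. Of 14 genes activated by PAX5 and EBF1, 10 were called lower and 1 higher on day 3 in each genotype. Of all genes 33% were called lower and 24.8% higher in control, and 33.2% and 23.4% in Mct1-deficient cells. The median log2 fold change of the 14 in control was -1.45, against -0.12 over all genes. Cr2, the complement receptor of naïve and marginal zone cells, had a log2 fold change of -5.41 and Cd55 of -3.60 in control, while Cd83 rose by 1.55 and Fcer2a (CD23) by 0.43, the latter under the limit. Between genotypes 0 of the 14 were called on day 3, where 2.42% of all genes were. Passing by the adjusted p alone were 3 higher and 2 lower, against 6.03% and 9.21% of all genes. All 10 tested FOXO1 targets were called lower with activation in both genotypes, where 33% and 33.2% of all genes were. S1pr1 and Klf2 fell most in control (log2 -4.15 and -3.42). On day 3 Klf2, a quiescence factor, and S1pr1, the receptor for exit from lymphoid tissue, were called higher in Mct1-deficient cells, with log2 differences of 0.87 (adjusted p = 4.15e-05, limma) and 0.90 (adjusted p = 1.60e-05), and the chemokine receptor Ccr7 was called lower, with a log2 difference of -0.98 (adjusted p = 5.17e-06). By the adjusted p alone 3 of the 10 targets were higher and 3 lower on day 3, against 6.03% and 9.21% of all genes. The log2 difference of Foxo1 itself was -0.18. In the interaction, where 3.23% of all genes were called, 2 of the 10 targets were called higher and 1 lower. They were Klf2 (1.16, adjusted p = 3.64e-04, limma) and S1pr1 (0.98, adjusted p = 4.24e-04), and Ccr7 (-0.78, adjusted p = 6.24e-04).

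Of 12 genes repressed by BCL6 or BACH2, 7 were called higher and 4 lower with activation in each genotype, against 24.8% and 33% of all genes in control and 23.4% and 33.2% in Mct1-deficient cells. The share called lower is near that of all genes, and the median log2 fold change in control was 0.93 against -0.12. Batf and Cdkn1a rose most in control (log2 3.57 and 2.80), and S1pr1 and the haem oxygenase gene Hmox1 fell most (log2 -4.15 and -3.21). Between the genotypes on day 3, Cdkn1a was called lower in Mct1-deficient cells (18.0 against 35.0 FPKM, log2 -0.92, adjusted p = 1.26e-04, limma) and S1pr1, which is also on the FOXO1 list, was called higher. By the adjusted p alone 1 of the 12 was higher and 5 were lower (Cdkn1a, Cdkn1b, Cd69, Ccnd2 and Batf), against 6.03% and 9.21% of all genes. In the interaction S1pr1 was called higher and Cdkn1a lower (-0.87, adjusted p = 0.00441, limma), where 3.23% of all genes were called. Of 12 plasma cell genes 10 were tested, and 8 were called higher and 1 lower in control and 6 higher and 2 lower in Mct1-deficient cells. Of all genes 24.8% were called higher and 33% lower in control, and 23.4% and 33.2% in Mct1-deficient cells. Mzb1 and Xbp1 rose most in control (log2 2.44 and 2.00), and Sdc1, the plasma cell surface marker CD138, was the one that fell (log2 -1.27). On day 3, 0 of the 10 were called between genotypes, where 2.42% of all genes were. Passing by the adjusted p alone were 3 lower and 0 higher, against 9.21% and 6.03% of all genes. On day 0 Jchain was called higher in Mct1-deficient cells (log2 0.97, adjusted p = 0.0193, limma). The interaction was called lower for Jchain (-1.44, adjusted p = 0.00246) and Mzb1 (-0.55, adjusted p = 5.44e-04), where 3.23% of all genes were called.

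**Figure D4:**
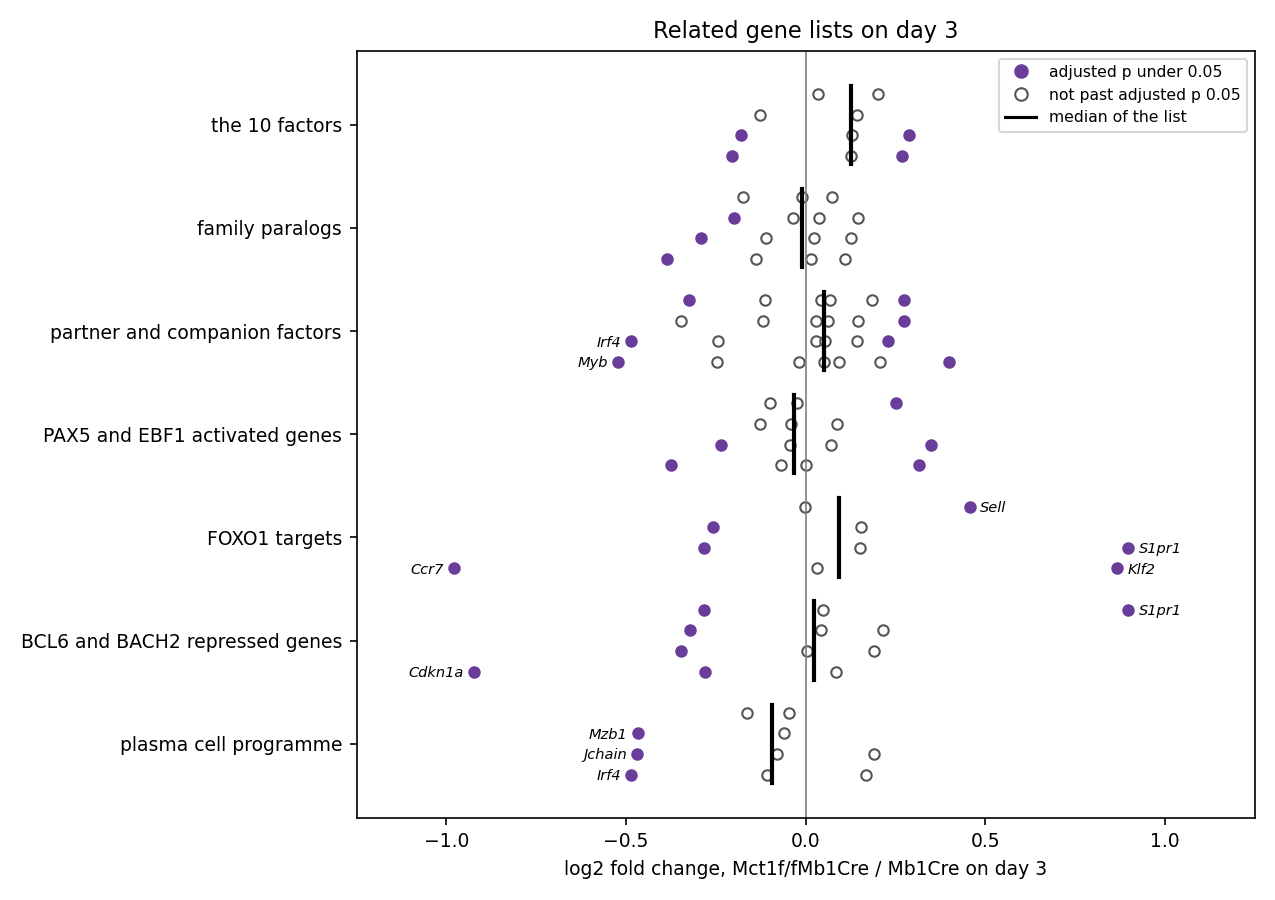
Log2 difference of Mct1-deficient against control cells on day 3 for the 10 factors and for each tested gene of the 6 related lists; filled points have an adjusted p under 0.05, open points do not, and black bars are list medians. The list medians lie between -0.09 and 0.13, and the widest points are Ccr7 at -0.98, Cdkn1a at -0.92, Klf2 at 0.87 and S1pr1 at 0.90.

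For each factor the genes with the most alike profile were sought among the 8430 genes that averaged 5 FPKM or more, leaving out the 10 factors themselves, by the root mean square difference of centred log2(FPKM + 1) over the 9 libraries. The nearest to Pou2af1 were Dtd1 (0.0317) and Ccdc25 (0.0363), and those to Pax5 were Gsk3b (0.0357) and Chd8 (0.0368). Ikzf1 lay nearest to Smad5 (0.0343) and to Cbfb (0.0372), the common partner of the RUNX factors. Ebf1 and Foxo1 lay nearer to each other (0.0418) than to any of these genes. Next to Ebf1 came Elk3 (0.0443) and Lsp1 (0.0475), and next to Foxo1 came Lsp1 (0.0489) and Snx30 (0.0571). Bcl6 lay nearest to Mapk11 (0.0568) and Sgsh (0.0578), and Ets1, the factor with the widest step, to Mtss1 (0.0625) and 5031439G07Rik (0.0655). The other nearest genes were Olfr1033 (0.0371) and Prr12 (0.0452) for Bach2, Snn (0.0450) and Itpr2 (0.0502) for Ikzf3, and Gucd1 (0.0514) and Akap12 (0.0627) for Spib. These likenesses describe 9 libraries that share the step from day 0 to day 3.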

How the data were processed

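RNA was measured in 9 libraries of splenic B cells, grouped by genotype and day as the labels give them. Levels were deposited as FPKM by the authors, 1 row per gene for 17596 genes. The labels list Bowtie2 and GRCm38/mm10, per the submitters' processing notes; the step to FPKM and the annotation are not given in the sources used here. The values hold no counts, so depth is unknown and precision rests on 2 or 3 libraries a group.

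Values were put on the scale log2(FPKM + 1), on which fold changes of low genes are understated. The 10823 genes that averaged 1 FPKM or more were fitted with limma 3.58.1 in R 4.3.3, with 4 group means, moderated variances (empirical Bayes, trended) and Benjamini-Hochberg adjustment over all genes tested. A call needed an adjusted p under 0.05 with a log2 change of more than 0.5 either way, and "passed" means the adjusted p alone. The 5 comparisons were day 3 against day 0 in each genotype, the genotypes on each day, and their interaction. The procedure was tested on simulated data.

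Genes named are the 10 factors, the 2 nearest in profile to each, and in each list those called between genotypes and the 2 with the largest change in each direction in control, with Slc16a1 and Ddx3y as checks. Paralogs below the filter, Cd3e, Cd4, Thy1, Gzma, Lyz2, Adgre1, Ly6c2, Hbb-bs, Slc4a1, Cdkn1b, Cd69 and Ccnd2 were added once values had been seen. The factors and lists were chosen with earlier results of these data known. Gene positions and promoters come from RefSeq (GRCm38.p6), in which all 10 factors had a position and 8 a promoter, and exons from GENCODE. Alternatives were other pseudocounts, filters, scalings and limits, only the compared groups, no trend, a replicate block and each library left out.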

Additional observations from a re-analysis of the deposited data

Results flagged for a closer look

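For 3 of the factors the change from day 0 to day 3 differed between the genotypes by the interaction test in limma (adjusted p under 0.05 over all genes tested). The interaction, as the log2 fold change in Mct1-deficient cells minus that in control cells, was 0.496 for Bcl6 (adjusted p = 0.0100), 0.348 for Ets1 (adjusted p = 0.00839) and 0.247 for Pax5 (adjusted p = 0.0426). In Bcl6 and Ets1 all 3 Mct1-deficient libraries were above both control libraries on day 3, as in 21% of all genes. Both Mct1-deficient libraries were below both control libraries on day 0, as in 19.7% of all genes. These libraries also gave the interaction, so their placement is not separate evidence for it. In Pax5 the libraries are placed in the same way. Ddx3y, a Y-linked gene, was at 31.13 FPKM in 1 of the 2 Mct1-deficient libraries of day 0 and at most 0.24 FPKM in the other 3 libraries of that day, and its part in these values was not tested.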

How the results depend on the processing

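Of the values of single factors under all alternatives, 909 kept their direction and their side of an adjusted p of 0.05, 25 lost the p, 10 gained it and 6 turned direction. The cause of these changes was not tested. With median-of-ratios scaling the log2 change of Ikzf1 was 0.0283 on day 3 against day 0 in Mct1-deficient cells and 0.0116 between genotypes on day 0, where quantile normalization gave 0.00326. With each library left out in turn the day 0 difference of Ikzf1 ran from -0.0387 to 0.0377 and that of Bach2 from -0.0744 to 0.0156. With no fold change limit 4 factors were called between genotypes on day 3 and 3 in the interaction. Under pseudocount 0.1, the replicate block, quantile or median-of-ratios scaling or a common total, 1 factor (Bcl6) was called in the interaction, and 0 to 1 with a library left out (1 without control replicate 2 of either day or Mct1-deficient replicate 3 of day 3). Factors with an adjusted p under 0.05 between genotypes on day 3 numbered 6 with median-of-ratios scaling and 1 to 5 with a library left out, 1 without control replicate 1 and 2 without control replicate 2 of day 3. The replicate numbers did not pair the libraries (correlations of deviations from -0.122 to 0.0867); with the number as a replicate block, in which Mct1-deficient replicate 3 of day 3 drops out of the fit, 2 factors passed on day 3 in place of 4, with Ebf1 at an adjusted p of 0.05005 and Foxo1 at 0.0824, and the Pax5 interaction was at 0.116. With the control numbers crossed, an alternative added after seeing the data, 9 factors were called on day 3 against day 0 in control, as without a block. No read depth is known, so no limit of detection can be given.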
